A study of Homo sapiens with 4 samples.

Results

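The genes described here encode the subunits of Mediator (MED genes), the TBP-associated factors (TAF genes) and the subunits of RNA polymerases I, II and III (POLR1, POLR2 and POLR3 genes). They were chosen by a rule on the symbol that uses no measured value, though earlier results of these data were known. The symbols matched 77 of the 14431 genes listed, with 30 Mediator genes, 20 TAF genes and 27 RNA polymerase genes. RNA was sequenced from HGC27, an established human gastric cancer cell line, in 2 control libraries, labelled wild type, and 2 libraries of cells transfected with siRNA against AARS1 (siAARS1). The cells of all 4 libraries were kept in glucose-free DMEM with serum and 25 mM lactate, for 24 h per the labels, while the text of the study gives another duration. Every library thus carries the lactate treatment, and a knockdown by siRNA lowers its target without removing it. The labels do not state whether the replicates were separate cultures, so p-values measure the spread between these libraries, which may be technical.

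Transcription of protein-coding genes begins when TFIID, made of TBP and TAFs, binds the core promoter and RNA polymerase II is assembled there with the general factors. Mediator bridges DNA-bound activators and the polymerase through its head, middle and tail modules, which are held together by the scaffold subunit MED14, and a separable kinase module binds Mediator reversibly. RNA polymerase I makes ribosomal RNA and is recruited by selectivity factor 1, which has its own set of TAFs around TBP, whereas RNA polymerase III makes transfer RNA and other small RNAs. A few small subunits are shared by the 3 enzymes.

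Values are read counts scaled to library size (CPM) as the authors deposited them. Each library held 30653210 to 33522573 reads in the listed genes, and 3 reads, the upper limit that a count of 0 allows, equalled 0.0880 to 0.0971 CPM, which covers counting error only. The members lay far above that limit, from 3.53 CPM for MED31 to 613 CPM for TAF2 over single libraries. AARS1 (listed as AARS, chromosome 16, 70252295 to 70289543, GRCh38), the alanyl-tRNA synthetase gene that was targeted, stood at 428 and 417 CPM in control replicates 1 and 2 and fell to 292 and 298 CPM with siAARS1, which is 69.7% of control (log2 fold change -0.52, SE 0.0357, limma adjusted p = 2.52e-11). Of the defining markers, the mesenchymal gene VIM was at 4600 to 5131 CPM over the 4 libraries. The mesenchymal regulator ZEB1 was at 6.16 and 6.84 CPM in the controls and 50.03 and 52.3 CPM in the siAARS1 libraries, and fibronectin (FN1) at 72.6 and 75.4 CPM and at 54.2 and 51.7 CPM. KRT8, an epithelial keratin, had 24.8 and 25.2 CPM without siAARS1 but 6.61 and 5.08 CPM with it. For CDX2 the control values were 9.77 and 9.71 CPM, against 7.09 and 6.35 CPM under siAARS1. EPCAM, KRT18, KRT19, the mesenchymal gene CDH2 and the gastric genes MUC5AC, TFF1 and GKN1 were not among the genes listed. PTPRC, CD3E, PECAM1 and VWF were not listed either, and the leukocyte gene CD68 stayed at 0.486 to 1.10 CPM. The part of these marker shifts in the results was not tested. CPM gives the share of a library's reads, so a change in the amount of RNA per cell, or in the number of cells that express a gene, cannot be told apart from a change of that gene.

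All 77 members passed the filter on low values, which asked for a mean of 1 CPM or more in either group. In the comparison of siAARS1 with control, which asked how the subunit genes of the transcription machinery stood when AARS1 was knocked down under lactate, 31 members rose and 21 fell at a limma adjusted p below 0.05, and 25 did not pass. The background is high, since 32.6% of the 14199 genes tested rose and 38% fell. Among members, 40.3% rose and 27.3% fell. A change of at least 2-fold upward was called for 10 members, 13.0% of them, against 10.6% of all genes, and no member fell 2-fold, against 1.63% of all genes. The siAARS1 libraries did not overlap the controls for 65 members, 84.4%, which is near the 85.1% of all genes. The members' median log2 fold change was 0.08 and that of all genes was -0.05.

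The complexes moved unequally. Among TAF genes 12 of 20 rose and 3 fell, with a median log2 fold change of 0.34. Mediator split nearly evenly, 11 of 30 genes rising and 10 falling around a median of -0.06, and the RNA polymerase genes split likewise, 8 of 27 rising and 8 falling around a median of 0.05. The shares of all genes tested were 32.6% higher and 38% lower. Gains of at least 2-fold numbered 5 among TAF genes (25%), 3 among Mediator genes (10%) and 2 among RNA polymerase genes (7.41%). Of all genes, 10.6% had such a gain. The spread of the log2 fold changes was similar in Mediator and the TAFs, with SDs of 0.61 and 0.63, and smaller in the polymerases, with an SD of 0.42, beside 0.69 over all genes. With each library scaled to its median gene, which moved the median of all genes to -0.27 and left 28.8% of calls upward in place of 46.2%, the counts were 8 higher and 16 lower for Mediator, 10 and 7 for the TAFs, and 4 and 17 for the polymerases. The medians there were -0.28 for Mediator, 0.12 for the TAFs and -0.17 for the polymerases, each lowered by the same amount. A pair of corrections took out of each library the trend of the values with sequence, the first with GC content and length of the transcript and the second with those of the coding sequence and 3′ UTR. After the first the medians were 0.01 for Mediator, 0.33 for the TAFs and 0.13 for the polymerases, and after the second 0.12, 0.14 and 0.085, with the polymerases lowest and the TAFs only slightly above Mediator. Subunits of a complex are not replicates, and the difference between complexes was not tested.

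**Figure D1:**
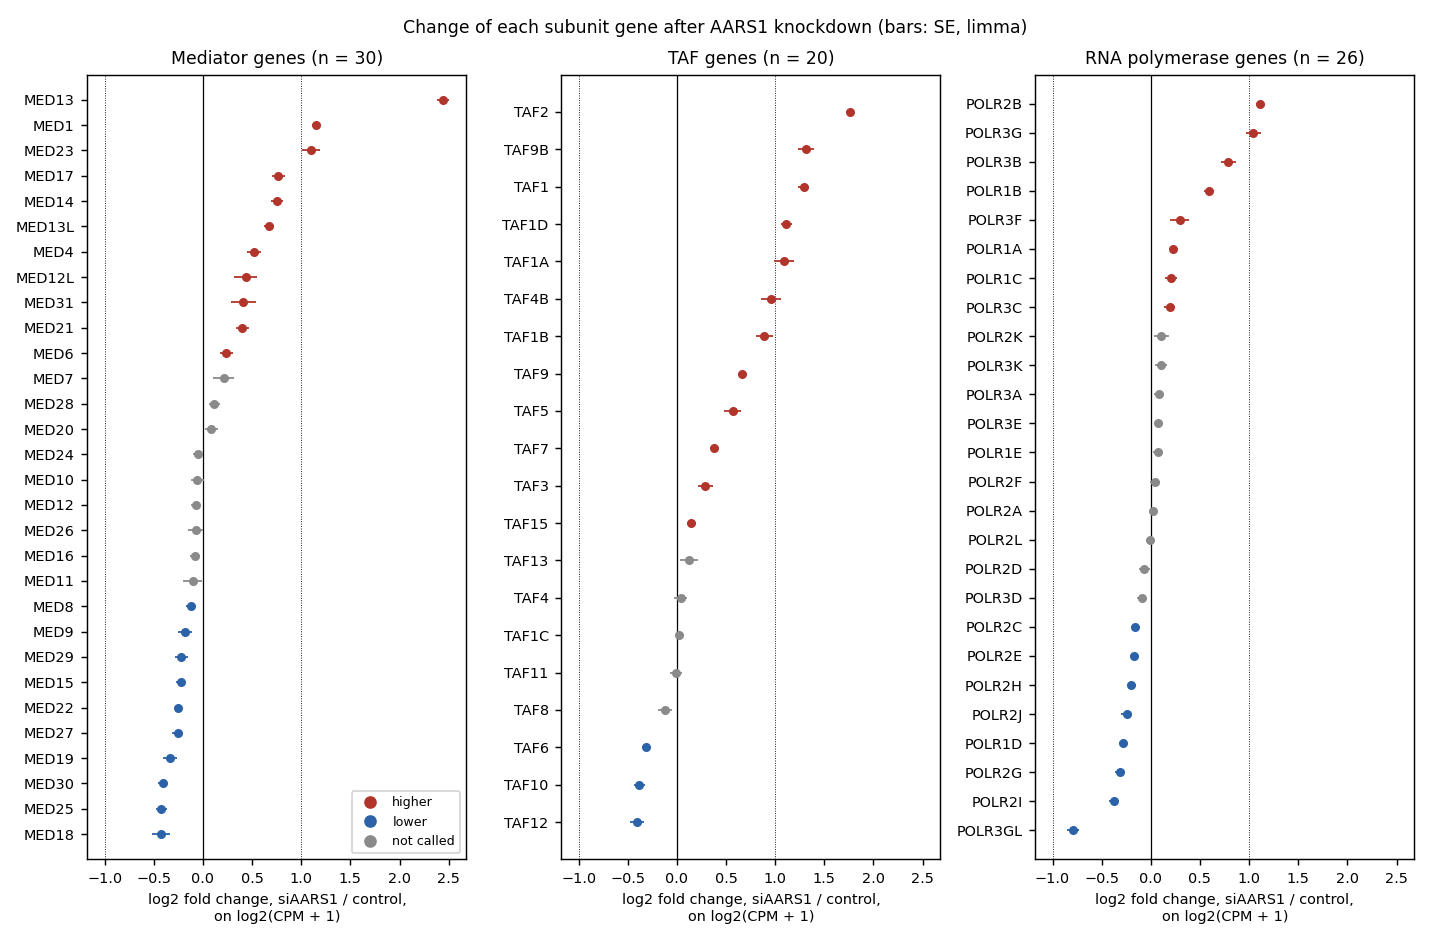
Log2 fold change of 76 subunit genes, siAARS1 over control, on the log2(CPM + 1) scale (x axis) for Mediator, TAF and RNA polymerase genes (panels), with limma's SE as bars, dotted lines at 2-fold and colours for genes called higher, lower or not called. Rises reached 2.45 for MED13 and 1.76 for TAF2, while the largest fall, that of POLR3GL, was -0.79.

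Within Mediator, 7 of the 11 rises lay in the kinase and middle modules, which hold 4 and 9 of the 30 genes. Among all genes tested, 32.6% rose and 38% fell. In the kinase module, which joins the kinase CDK8 or CDK19 and cyclin C to Mediator through MED12 and MED13 or their paralogs, 3 of 4 genes rose, against 2 higher and 2 lower after the first correction and 1 higher and 2 lower after the second. MED13 (chromosome 17, 61942605 to 62065282, minus strand), which links the module to the core complex, had 15.6 and 16.4 CPM in the controls and 88.5 and 94.9 CPM in the siAARS1 libraries. This was the largest change among the 77 members (log2 fold change 2.45, SE 0.0605, limma adjusted p = 6.90e-19) and lay above 99.0% of all genes tested. Its paralog MED13L rose less, from 42.6 and 42.5 CPM to 66.9 and 70.3 CPM (log2 fold change 0.68, SE 0.0523, limma adjusted p = 1.88e-10). MED12, which activates the kinase, overlapped between the groups, with 77.5 and 81.6 CPM in the controls and 77.8 and 73.3 CPM after knockdown (-0.07, SE 0.0491, limma adjusted p = 0.186). Its less expressed paralog MED12L went from 5.63 and 7.38 CPM to 9.39 and 8.75 CPM (0.43, SE 0.1195, limma adjusted p = 0.00290), a call that was lost without control replicate 1 (0.27, limma adjusted p = 0.0809), without siAARS1 replicate 1 (0.39, limma adjusted p = 0.0520) and under median scaling (0.21, limma adjusted p = 0.0926). MED12L shares 3634 exonic bases with IGSF10 on the other strand. The use of strand in counting is not given in the sources used here, so reads of the 2 genes may not be separable.

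The middle module, which carries contacts with nuclear receptors through MED1, had 4 of 9 genes higher and 2 lower, beside 32.6% and 38% of all genes. The counts became 2 and 3 after the first correction and 6 and 0 after the second. MED1 (chromosome 17, 39404285 to 39451286) rose from 59.1 and 60.5 CPM to 136 and 133 CPM (log2 fold change 1.16, SE 0.0448, limma adjusted p = 1.13e-15). The siAARS1 libraries lay far above the controls and close to each other. MED4, MED21 and MED31 also rose, by log2 fold changes of 0.52, 0.40 and 0.41, and MED19 and MED9 fell by 0.33 and 0.18 on the log2 scale. The call for MED31 was lost under median scaling and that for MED9 under edgeR (edgeR adjusted p = 0.0678). MED31 also shares 1227 exonic bases with TXNDC17 on the other strand. The scaffold gene MED14 rose from 30.5 and 30.2 CPM to 52.0 and 51.7 CPM (0.75, SE 0.0570, limma adjusted p = 1.27e-10).

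In the tail module, which receives many activators, 5 of 9 genes were lower and 1 was higher in the deposited CPM, where 38% of all genes were lower. The corrections did not keep this, with 3 higher and 2 lower after the first and 3 and 3 after the second. MED30 fell from 132 and 140 CPM to 101 and 103 CPM (log2 fold change -0.41, SE 0.0432, limma adjusted p = 2.67e-08). MED25, the target of several viral and cellular activators, fell from 55.3 and 59.9 CPM to 43.6 and 41.7 CPM (-0.42, SE 0.0563, limma adjusted p = 8.67e-07), a call lost after the first correction (-0.059, limma adjusted p = 0.274). MED25 shares 1438 of its 7687 exonic bases with PTOV1-AS1 on the other strand. MED27, MED15 and MED29 fell by 0.26, 0.23 and 0.22 on the log2 scale. MED23 was the exception, rising from 10.5 and 10.7 CPM to 21.8 and 25.9 CPM (1.10, SE 0.0898, limma adjusted p = 4.65e-10), but stood at -0.44 after the second correction (limma adjusted p = 5.0e-05). In all 9 tail genes the 2 groups did not overlap, MED16, MED24 and MED28 included, which did not pass the test. The groups did not overlap for 85.1% of all genes tested.

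Of the 7 head genes, which lie next to the polymerase, 2 rose and 3 fell, beside 32.6% and 38% of all genes. The counts were 0 higher and 2 lower after the first correction and 3 higher and 0 lower after the second. MED17, the central head subunit, rose from 19.8 and 21.0 CPM to 34.1 and 36.7 CPM (log2 fold change 0.77, SE 0.0692, limma adjusted p = 2.33e-09), a call lost after both corrections (0.056, limma adjusted p = 0.417, and 0.12, limma adjusted p = 0.0884). It shares 88 exonic bases with TAF1D, which lies on the opposite strand and also rose. MED18 fell from 13.6 and 14.7 CPM to 10.4 and 10.2 CPM (-0.43, SE 0.0926, limma adjusted p = 3.49e-04). MED6 rose by 0.24 on the log2 scale, a call lost under median scaling, and MED22 and MED8 fell by 0.25 and 0.12, the latter call being lost under edgeR (edgeR adjusted p = 0.157).

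Summed over genes, the kinase module went from 141 and 148 CPM to 242 and 247 CPM, 169% of the control mean. Most of the kinase module's gain was that of MED13, from 15.6 and 16.4 CPM to 88.5 and 94.9 CPM. The middle module reached 137% of control, the head stayed at 99.4% and the tail came to 89.7%. Most of the middle module's gain was that of MED1, from 59.1 and 60.5 CPM to 136 and 133 CPM. These sums weight long and abundant transcripts most.

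**Figure D2:**
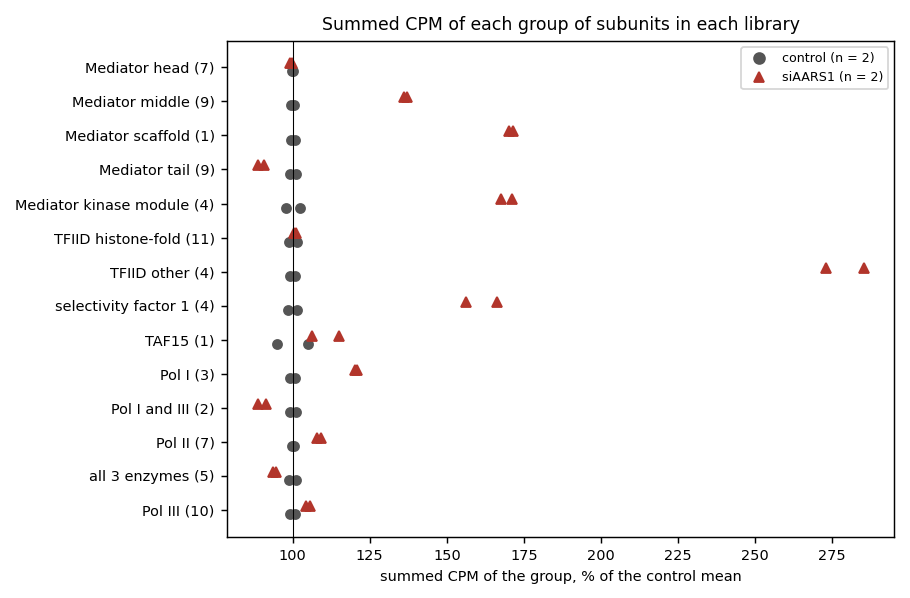
Summed CPM of each group of subunits (rows, number of genes in brackets) in each library, as a percent of the control mean of that group (x axis), with circles for the 2 control and triangles for the 2 siAARS1 libraries. The TFIID subunits without a histone fold stand at 279% of control, while the Mediator head and the histone-fold TAFs lie at 99.4% and 101%.

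Among the TAFs, the TFIID subunits that lack a histone fold, TAF1, TAF2, TAF5 and TAF7, all rose, 4 of 4, beside 32.6% of all genes. Each also rose under median scaling and after the first correction. After the second, which leaves out TAF1, TAF5 and TAF7 were higher and TAF2 lower. TAF2, which binds the initiator element at the start site, was the most changed of them, with 174 and 177 CPM in the controls and 579 and 613 CPM in the siAARS1 libraries (log2 fold change 1.76, SE 0.0377, limma adjusted p = 7.88e-20). TAF1 (chromosome X, 71366239 to 71532374, plus strand), the largest TFIID subunit, whose bromodomains bind acetylated histones, rose from 33.0 and 34.8 CPM to 84.4 and 84.2 CPM (1.29, SE 0.0525, limma adjusted p = 2.62e-15). TAF5, a WD40-repeat protein, and TAF7, a partner of TAF1, rose by 0.57 and 0.38 on the log2 scale. The sum of the 4 genes went from 274 and 278 CPM to 753 and 787 CPM, most of it TAF2. All TAF genes together reached 150% of control with TAF2 and 118% without it.

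The 11 histone-fold TAFs, which pair with one another inside TFIID, divided into 4 higher, 3 lower and 4 not called. TAF9B rose from 13.4 and 14.8 CPM to 34.0 and 39.4 CPM (log2 fold change 1.32, SE 0.0804, limma adjusted p = 3.23e-12). The gene listed as TAF9, its paralog, rose less, from 71.8 and 72.5 CPM to 112 and 119 CPM (0.67, SE 0.0458, limma adjusted p = 2.43e-11). GENCODE v29 names that identifier AK6, a gene at the same locus, and the transcript used here is the one annotated for AK6. The count may thus be that of AK6 in part or in whole. Both TAF9B and the gene listed as TAF9 had groups that did not overlap. TAF4B, the variant of TAF4 known from germ cells and B cells, went from 6.42 and 7.09 CPM to 14.4 and 13.7 CPM (0.96, SE 0.101, limma adjusted p = 2.64e-08). TAF4 itself overlapped between groups, with 29.9 and 28.6 CPM and then 30.4 and 29.6 CPM (0.04, SE 0.0647, limma adjusted p = 0.622).

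The falls in the deposited CPM were those of TAF6, TAF10 and TAF12, and that of TAF12 alone was also called after both corrections. TAF6 then stood at -0.0045 and -0.035 (limma adjusted p = 0.898 and 0.303) and TAF10 at -0.047 and -0.089 (limma adjusted p = 0.504 and 0.147). TAF10 and TAF12 are shared by TFIID and the coactivator complex SAGA. TAF12 went from 27.8 and 25.7 CPM to 20.6 and 19.3 CPM (log2 fold change -0.41, SE 0.0737, limma adjusted p = 4.87e-05). TAF10 went from 87.9 and 103 CPM to 70.9 and 75.0 CPM (-0.38, SE 0.0587, limma adjusted p = 6.60e-06). The control libraries of TAF10 differed more than those of its neighbours, and the gene shares 2374 exonic bases with ILK on the other strand. TAF6 went from 228 and 230 CPM to 190 and 179 CPM (-0.31, SE 0.0399, limma adjusted p = 5.40e-07). It shares 1010 of its 4086 exonic bases with AP4M1 on the other strand. TAF3, which reads methylated histone H3, rose by 0.29 on the log2 scale, a call lost under median scaling.

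In selectivity factor 1, the TBP complex of the RNA polymerase I promoter, 3 of 4 TAFs rose, beside 32.6% of all genes. The counts were 4 higher after the first correction and 3 higher and 1 lower, TAF1B, after the second. TAF1D had 49.7 and 54.97 CPM in the controls and 110 and 119 CPM after knockdown (log2 fold change 1.11, SE 0.0541, limma adjusted p = 5.71e-14). TAF1A had 6.45 and 6.65 CPM and then 14.0 and 16.2 CPM (1.09, SE 0.102, limma adjusted p = 4.45e-09), and TAF1B had 9.24 and 9.61 CPM and then 17.6 and 19.0 CPM (0.89, SE 0.0899, limma adjusted p = 1.44e-08). TAF1C lay at 62.4 to 64.7 CPM in all 4 libraries (0.03, SE 0.0490, limma adjusted p = 0.648). TAF15, an RNA-binding protein that is found with a fraction of TFIID, went from 230 and 208 CPM to 232 and 252 CPM (0.15, SE 0.0465, limma adjusted p = 0.00823), with a value of -0.07 under median scaling. With the 15 genes of TFIID proper alone, 8 rose and 3 fell around a median of 0.29.

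The promoters of the selectivity factor 1 genes are shown because they share a motif while their transcripts did not move alike in the deposited CPM. The sequences are the RefSeq windows of GRCh38.p14, from 250 bases before to 50 bases after an annotated start, printed 5′ to 3′ on the strand of the gene. Capitals mark CCGGAAG, the core of the binding motif of ETS factors, or its reverse complement CTTCCGG, and in TAF1B also GGAATG, the reverse complement of the TEAD motif CATTCC. TAF1A is at chr1:222589884-222590183, minus strand, TAF1B at chr2:9843192-9843491, plus strand, TAF1C at chr16:84187008-84187307, minus strand, and TAF1D at chr11:93741446-93741745, minus strand.
TAF1A: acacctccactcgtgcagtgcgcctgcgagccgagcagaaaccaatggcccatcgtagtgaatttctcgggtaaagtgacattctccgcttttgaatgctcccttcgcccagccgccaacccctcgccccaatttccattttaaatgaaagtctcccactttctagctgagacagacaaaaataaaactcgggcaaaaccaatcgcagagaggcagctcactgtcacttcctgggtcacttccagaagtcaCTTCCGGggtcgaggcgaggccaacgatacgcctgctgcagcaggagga
TAF1B: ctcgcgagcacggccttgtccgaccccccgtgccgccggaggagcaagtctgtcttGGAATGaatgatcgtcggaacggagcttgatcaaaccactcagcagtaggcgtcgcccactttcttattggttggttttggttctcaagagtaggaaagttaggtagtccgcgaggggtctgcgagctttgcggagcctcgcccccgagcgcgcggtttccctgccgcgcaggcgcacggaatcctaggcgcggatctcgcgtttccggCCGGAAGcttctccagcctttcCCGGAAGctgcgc
TAF1C: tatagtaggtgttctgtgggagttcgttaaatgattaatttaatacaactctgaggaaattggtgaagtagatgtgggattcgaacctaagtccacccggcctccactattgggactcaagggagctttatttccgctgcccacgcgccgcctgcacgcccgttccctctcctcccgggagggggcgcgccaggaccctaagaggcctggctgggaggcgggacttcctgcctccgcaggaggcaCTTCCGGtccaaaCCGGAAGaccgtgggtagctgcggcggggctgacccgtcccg
TAF1D: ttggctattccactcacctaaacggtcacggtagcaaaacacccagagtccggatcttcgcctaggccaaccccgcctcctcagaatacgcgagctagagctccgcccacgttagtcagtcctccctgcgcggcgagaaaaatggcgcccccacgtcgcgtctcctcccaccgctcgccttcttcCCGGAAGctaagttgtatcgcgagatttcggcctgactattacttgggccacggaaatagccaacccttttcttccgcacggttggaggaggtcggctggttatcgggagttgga

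All 4 windows shown held the ETS letters, TAF1B and TAF1C 2 times each. TAF1B has 2 windows, and the one shown was chosen for holding these letters. TAF1C, the gene that did not pass the test in the deposited CPM, was among the 4. It stood at 0.34 and 0.36 after the first and second correction (limma adjusted p = 4.01e-06 and 2.42e-07). RefSeq windows were found for 58 of the 77 members. Of these, 23 held CCGGAAG on either strand, 39.7%, against 12.2% of the 27305 genes with a window and 22.2% of the 9652 such genes tested here. The motif stood in 11 of 24 members that rose, 5 of 15 that fell and 7 of 19 that were not called. CATTCC, the motif of the TEAD factors that the study follows, was in 6 of 58 members, 10.3%, against 16.7% of all genes and 15.1% of the genes tested, with 1 of 24 risers, 3 of 15 fallers and 2 of 19 genes not called. The E-box CACGTG was in 7 members, 12.1%, against 8.77% of all genes and 12.6% of those tested. The TATA box letters TATAAA were in 3 members, 5.17%, against 14.0% and 7.98%. None of the 4 motifs holds another within it. A match describes the letters of the window, not a bound factor.

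Among the polymerase genes, the largest subunit of each enzyme had a smaller log2 fold change than the second-largest one in the deposited CPM, a difference that was not tested. The order turned after the second correction, with POLR1A at 0.38 and POLR1B at -0.11, and POLR3A at -0.14 and POLR3B at -0.20. POLR2A (chromosome 17, 7484366 to 7514616, plus strand), whose long C-terminal tail of repeats marks polymerase II, had 398 and 399 CPM in the controls and 411 and 396 CPM after knockdown (log2 fold change 0.02, SE 0.0356, limma adjusted p = 0.666). POLR3A had 63.6 and 61.7 CPM and then 64.7 and 68.1 CPM (0.08, SE 0.0501, limma adjusted p = 0.147), and passed under edgeR (0.12, edgeR adjusted p = 0.0397). POLR1A rose slightly, from 253 and 252 CPM to 296 and 294 CPM (0.22, SE 0.0359, limma adjusted p = 1.08e-05), but stood at 0.0045 under median scaling (limma adjusted p = 0.923). POLR2A and POLR3A had negative values under that scaling, so no direction is given for them.

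The second-largest subunits, which close the active centre with the largest ones, all rose, in each polymerase. POLR2B (chromosome 4, 56977722 to 57031168, plus strand) went from 99.3 and 103 CPM to 218 and 222 CPM (log2 fold change 1.11, SE 0.0406, limma adjusted p = 3.89e-16). POLR3B went from 15.7 and 16.6 CPM to 26.6 and 30.8 CPM (0.79, SE 0.0801, limma adjusted p = 1.55e-08). POLR1B went from 59.5 and 58.9 CPM to 88.3 and 91.1 CPM (0.59, SE 0.0472, limma adjusted p = 3.10e-10). These 3 genes also rose under median scaling. All 3 had negative values, from -0.40 for POLR2B to -0.11 for POLR1B, once the trend with the coding sequence and 3′ UTR was removed.

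Of the 7 genes particular to polymerase II, POLR2B alone rose and 4 fell, where 38% of all genes fell. The counts were 2 higher and 2 lower after the first correction and 1 higher and 3 lower after the second. POLR2I fell from 75.96 and 75.5 CPM to 60.001 and 56.7 CPM (log2 fold change -0.37, SE 0.0495, limma adjusted p = 9.34e-07), a call lost after the first correction (-0.078, limma adjusted p = 0.0990). POLR2I shares 417 of its 1269 exonic bases with TBCB on the other strand. POLR2G, which forms the stalk with POLR2D, fell from 67.2 and 67.0 CPM to 55.3 and 52.4 CPM (-0.31, SE 0.0508, limma adjusted p = 1.27e-05). POLR2J and POLR2C fell by 0.24 and 0.16 on the log2 scale. POLR2J has near-identical copies in the genome, which makes its count uncertain. Of the 5 subunits common to the 3 enzymes, POLR2E and POLR2H fell, by 0.17 and 0.20 on the log2 scale, and POLR2F, POLR2K and POLR2L did not pass. After the first correction 4 of the 5 were higher and 1 lower, and after the second 3 were higher and 0 lower. Between the subunits shared by polymerases I and III, POLR1D fell by 0.29 and POLR1C had a log2 fold change of 0.21, which was -0.01 under median scaling.

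In polymerase III a pair of paralogs moved in opposite directions in the deposited CPM, though not after the first correction, where POLR3G stood at -0.18 (limma adjusted p = 0.0243) beside -0.68 for POLR3GL. POLR3G and POLR3GL encode alternative forms of 1 subunit, the former known from stem cells and tumours and the latter from most tissues. POLR3G (chromosome 5, 90471748 to 90514553, plus strand) rose from 14.1 and 14.7 CPM to 29.05 and 32.7 CPM (log2 fold change 1.04, SE 0.0779, limma adjusted p = 9.90e-11). POLR3GL (chromosome 1, 145964702 to 145978848, plus strand) fell from 38.3 and 40.6 CPM to 22.3 and 22.4 CPM (-0.79, SE 0.0649, limma adjusted p = 4.78e-10). This was the largest fall among the members, and 3.92% of all genes tested had a lower value. Both genes had groups that did not overlap, and both calls and directions held under median scaling and after the second correction. POLR3C and POLR3F had log2 fold changes of 0.19 and 0.29, calls lost under median scaling, and POLR3A, POLR3D, POLR3E and POLR3K were not called.

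Levels of different genes can be compared per length of transcript. In CPM per kb of transcript (group means), POLR3GL stood at 33.9 in the controls and POLR3G at 4.39, and after knockdown at 19.2 and 9.39. MED13 stood below MED13L in the controls, at 1.53 and 2.91 CPM per kb, and above it after knockdown, at 8.76 and 4.69 CPM per kb. The order of the other pairs was the same in both groups, TAF9 above TAF9B, TAF4 above TAF4B and MED12 above MED12L. The level given for TAF9 rests on the transcript annotated for AK6. Over the 76 members with a transcript, the control level ran from 0.605 CPM per kb for MED12L to 162 CPM per kb for POLR2L. These levels use 1 annotated transcript for each gene, and differences between the changes of paralogs were not tested.

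**Figure D3:**
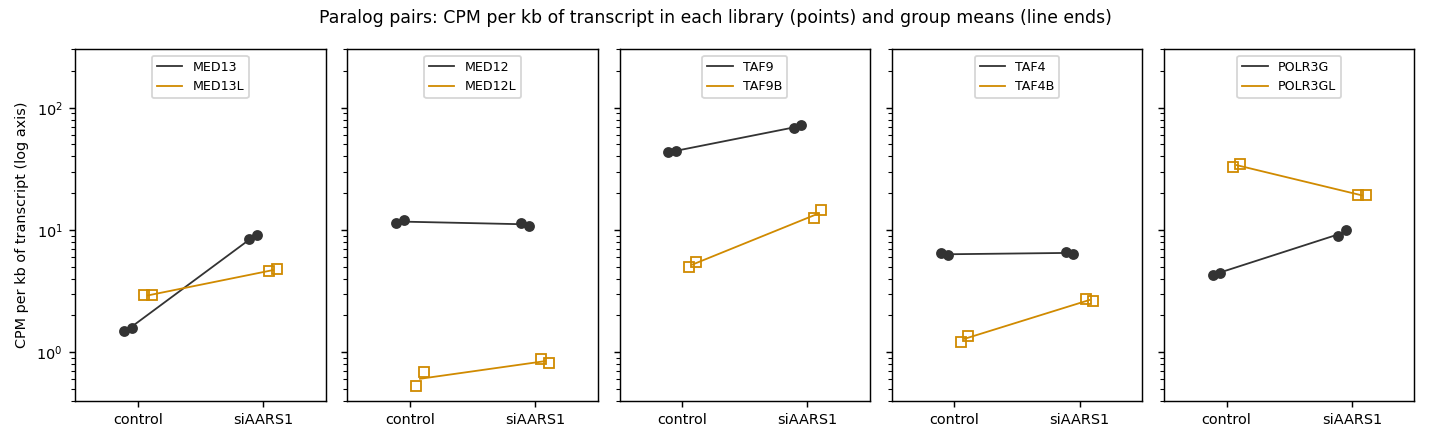
CPM per kb of transcript (y axis, log scale) of 5 paralog pairs in the 2 control and 2 siAARS1 libraries (points, lines joining the group means, filled for the first and open for the second gene of a pair). POLR3G and POLR3GL converge, from 4.39 and 33.9 to 9.39 and 19.2, and MED13 passes MED13L.

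The changes followed the base composition of the transcripts. Members that rose had a median transcript GC content of 42.3% and a median length of 3697 bases, and those that fell had 54.7% and 1802 bases. Across the 76 members with a transcript, log2 fold change and GC content had a Spearman correlation of -0.72, and across all genes tested one of -0.65. With length the correlations were 0.45 and 0.30. Members share the libraries, and genes are not independent replicates, so these values are descriptions. Within each complex the correlation with GC content had the same sign, at -0.72 in Mediator, -0.68 in the TAFs and -0.63 in the polymerases. The part of base composition in each rise or fall was not tested beyond the corrections that follow.

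**Figure D4:**
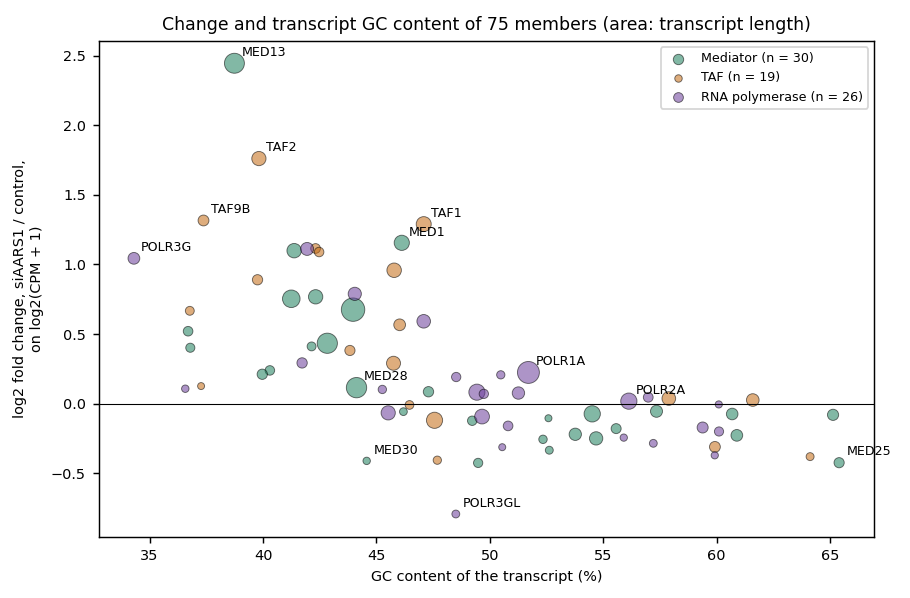
Log2 fold change on the log2(CPM + 1) scale (y axis) against transcript GC content in percent (x axis) for 75 members with an annotated transcript, coloured by complex, with point area following transcript length. MED13, TAF2 and POLR3G sit at low GC content, and POLR3GL and MED30 fall at middling values.

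When the trend with transcript GC content and length was taken out of each library, 33 of 76 members were higher and 17 lower, beside 4500 and 4610 of 13819 genes. The counts moved in opposite ways in the complexes. Mediator had 7 higher and 10 lower, the TAFs 11 and 2, and the polymerases 15 and 5. MED13 and TAF1 alone stayed at or above 2-fold, at log2 values of 1.00 and 1.13, beside 750 of the 13819 genes. POLR2A, not called from the deposited values, stood at 0.32 (limma adjusted p = 2.34e-08), and MED14 turned from 0.75 to -0.32 (limma adjusted p = 4.93e-05). POLR3G turned to -0.18 (limma adjusted p = 0.0243), while POLR3GL kept its fall, at -0.68 (limma adjusted p = 5.19e-08). The kinase module split, with MED13 and MED12 higher and MED13L and MED12L lower.

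A second correction used the composition and length of the coding sequence and of the 3′ UTR and covered 74 members, without TAF1, POLR2A and TAF15. Of these members 35 were higher and 17 lower, beside 4035 and 3847 of 12182 genes. MED13 then stood at -0.06 (limma adjusted p = 0.317), TAF2 at -0.13 (limma adjusted p = 2.78e-04) and POLR2B at -0.40 (limma adjusted p = 2.61e-10), so the largest rises of Mediator and the TAFs and that of the polymerases were not seen in this fit. POLR3G returned to a rise, at 0.21 (limma adjusted p = 0.00768). No member was at or above 2-fold, where 296 of the 12182 genes were.

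A call in the same direction in the deposited CPM and in both corrections was held by 9 of 29 members that rose and 4 of 21 that fell, beside 40.7% and 44.8% of all genes that could be assessed. The 9 were MED1, POLR1A, POLR1C and the TAF genes TAF1A, TAF1D, TAF4B, TAF5, TAF7 and TAF9B. The 4 were MED30, TAF12, POLR2G and POLR3GL. By complex this was 6 of 10 rising TAF genes, 1 of 11 rising Mediator genes and 2 of 8 rising polymerase genes. TAF9B had 0.48 and 0.90 in the corrections, and MED1 had 0.86 and 0.28. The targeted gene AARS1, at -0.52 in the deposited CPM, stood at -0.28 and -0.37 (limma adjusted p = 4.46e-07 and 2.04e-10).

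**Figure D5:**
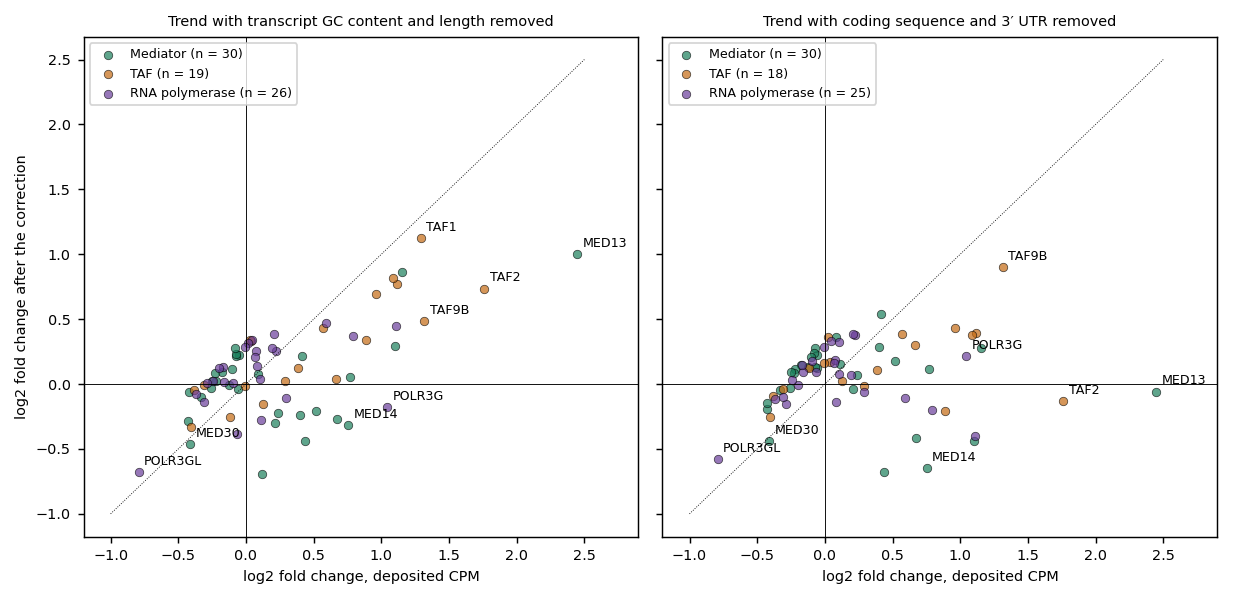
Log2 fold change after each correction (y axis) against that from the deposited CPM (x axis), for transcript GC content and length (left) and for coding sequence and 3′ UTR (right), with 1 point for each member drawn, coloured by complex, and a dotted line of equality. MED13 falls from 2.45 to 1.00 and to -0.06, and POLR3GL stays below 0 in both panels.

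The partners of these complexes, listed by their known roles, comprised 45 genes, of which 24 rose, 9 fell and 12 were not called. Of all genes tested, 32.6% rose and 38% fell. After the first correction 19 partners were higher and 12 lower, beside 4500 and 4610 of 13819 genes. After the second, with 44 partners, 14 were higher and 11 lower, beside 4035 and 3847 of 12182 genes. TBP, the subunit that TFIID and selectivity factor 1 have in common, was at 13.9 to 15.4 CPM in all libraries (log2 fold change -0.01, SE 0.0875, limma adjusted p = 0.894). CDK8, CDK19 and CCNC, the kinases and the cyclin of the Mediator kinase module, all rose in the deposited CPM, with log2 fold changes of 0.23, 0.64 and 0.43. This did not hold after the corrections, where the values were 0.040, -0.11 and -0.23 after the first and -0.25, 0.38 and -0.37 after the second, and 2 of the 3 rose under median scaling. BDP1, a subunit of the polymerase III factor TFIIIB, rose from 5.87 and 6.21 CPM to 40.9 and 48.3 CPM (2.69, SE 0.0886, limma adjusted p = 6.41e-17), with 1.29 and 0.043 after the first and second correction. TWISTNB, a polymerase I subunit now named POLR1F, rose from 32.9 and 33.2 CPM to 102 and 115 CPM (1.68, SE 0.0558, limma adjusted p = 7.46e-17), with 0.58 and 1.16. The largest falls were those of the TFIIH genes ERCC2, from 88.2 and 89.7 CPM to 64.1 and 59.9 CPM (-0.51, SE 0.0490, limma adjusted p = 5.59e-09), and GTF2H4, from 40.4 and 41.9 CPM to 33.3 and 31.6 CPM (-0.33, SE 0.0602, limma adjusted p = 4.60e-05). After the corrections ERCC2 stood at -0.21 and -0.23 and GTF2H4 at -0.043 and -0.041.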

How the data were processed

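The authors deposited 1 table of CPM values (read counts scaled to library size) for 14431 genes. The submitters' processing notes name RSEM 1.3.3 and hg38, and the rest of the upstream processing is not given in the sources used here. CPM corrects neither for length nor for GC content. All values were whole multiples of 1 read (100% within 0.1 of a read). The replicates differed beyond sampling noise (chi-square per gene 3.63 and 3.62). Genes averaging 1 CPM or more in either group were tested with limma 3.58.1 (R 4.3.3, eBayes with a trend) on log2(CPM + 1), siAARS1 against control, Benjamini-Hochberg over 14199 genes, threshold 0.05. This scale understates changes of low genes. In the parts of the paper used here, which point to further methods not used here, no test of single genes was found. The members, lists and corrections were chosen with earlier results of these data known. The corrections fitted, library by library, how far genes lay from their own mean as a smooth function (mgcv 1.9.3) of those sequence properties and subtracted it, which also takes out true change that follows them. Transcripts and coordinates are from GENCODE v29 (GRCh38), matched by identifier for all members but TAF15. Full values are given for the 4 largest rises and 3 largest falls in each complex among called genes with at least 5 CPM in the higher group and groups that did not overlap, for POLR2A, POLR1A, POLR3A, TAF1, MED14 and MED1, and for 5 paralog pairs. A polymerase gene is counted but not reported by name or drawn as a point here. TAF1A and TAF1B were added after their values were seen. Of the partners, the 2 largest rises and falls are named by the same rule, and TBP and the kinase genes were added. Methods were tested on simulated data. The alternatives were a pseudocount of 0.1, no filter, median scaling, edgeR 4.0.16 on the recovered reads, a threshold of 0.01, a replicate block, leaving out each library, both corrections and the TFIID subunits alone.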

Additional observations from a re-analysis of the deposited data

How the results depend on the processing

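Across 31 log2 fold changes of named members, no direction or call changed with a pseudocount of 0.1, without the filter, at a threshold of 0.01 or with the replicate block. The same-numbered libraries are not stated to be paired, their deviations correlated with r = 0.118 over 14199 genes, and the replicate block left 12 Mediator genes higher in place of 11 and the TAF and polymerase counts at 12 and 3 and at 8 and 8. Without 1 library at a time, the polymerase genes called at least 2-fold were 1 to 2, POLR3G standing at 0.96 without siAARS1 replicate 2. The medians then ranged from 0.019 to 0.10 for the polymerases, 0.33 to 0.35 for the TAFs and -0.07 to 0.00 for Mediator, and POLR2A from -0.0098 to 0.046.

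Median scaling gave 8173 lower calls over all genes. The lower calls numbered 16 for Mediator, 7 for the TAFs and 17 for the polymerases, the latter with 4 higher. Genes at least 2-fold in either direction came to 1, 3 and 1, and medians to -0.28, 0.12 and -0.17. The polymerase gene was POLR3GL, which fell (-1.01), while POLR2B and POLR3G stood below 2-fold, at 0.89 and 0.82. POLR2A, POLR3A and TAF4 reversed to -0.20, -0.14 and -0.18. edgeR on the recovered reads called 9806 genes, beside 10032 by limma, and gave medians of 0.38 for the TAFs and 0.080 for the polymerases, and TFIID subunits alone had 3 genes at least 2-fold.

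The GC and length correction, with or without the replicate block, left 7 Mediator genes higher, 15 polymerase genes higher and 5 lower, with a polymerase median of 0.13. Genes at least 2-fold were 1, 1 and 0 in Mediator, the TAFs and the polymerases, beside 750 of 13819 genes. It reversed POLR3G (-0.18), MED14 (-0.32), MED12 (0.21), MED12L (-0.44) and MED13L (-0.27). The coding sequence and 3′ UTR correction gave 6 lower Mediator genes and medians of 0.12, 0.14 and 0.085. It left 0 genes at least 2-fold in any complex, beside 296 of 12182 genes. It reversed MED13 (-0.058), MED23 (-0.44), TAF2 (-0.13), POLR2B (-0.40), POLR3B (-0.20), POLR1B (-0.11), POLR3A (-0.14), MED14 (-0.64), MED12 (0.13), MED12L (-0.68) and MED13L (-0.41). The same genes without that correction, an alternative chosen after seeing the data, had a polymerase median of 0.058, and by its construction it leaves each gene's log2 fold change as it was.

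With 2 libraries a group, the SD of a mean rests on 1 degree of freedom, and limma borrows the spread from all genes. The causes of the shifts under the other settings were not tested.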
